A study of Mus musculus with 4 samples.

Results

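Imprinted genes are expressed from a single parental allele, and 31 of them were examined here in granulosa cells (GCs), which enclose and nourish the oocyte. The 31 symbols were listed by name, each matched 1 Ensembl identifier of the deposited table, and together they were 31 of 55385 genes in it. By textbook assignment, 12 are expressed from the maternal allele and 19 from the paternal allele. The counts carry no allele information, so "maternally expressed" and "paternally expressed" are names of gene classes here and not measurements. The GCs came from preantral follicles of 12 to 14-day old female Kunming mice, an outbred stock, grown in vitro for 6 days. In the NT4 group the medium held neurotrophin-4 (NT-4), the growth factor that signals through the receptor TRKB, and in the Control group it did not. By the study's methods, both groups shared the rest of the medium, with fetuin, insulin, transferrin, albumin and follicle-stimulating hormone. Bulk RNA sequencing gave 2 libraries per group, Control 1, Control 2, NT4 1 and NT4 2. The cells were those left after the oocyte had been released, and how many follicles or mice went into a library was not given in the sources used here.

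Imprinting is set by DNA methylation laid down in the germ line at differentially methylated regions, which silences genes of a cluster on the allele of 1 parent. Many paternally expressed genes promote growth and many maternally expressed genes restrain it, and long noncoding RNAs of the clusters often silence their neighbours. Many of the genes are abundant in fetal tissues, and their expression declines after birth in many organs.

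Libraries held 49520092 to 78704020 counts, and a gene without a count could lie anywhere up to 12 counts, or 0.156 to 0.239 CPM (counts scaled to library size as in edgeR), which covers counting error only. The label of the cells was checked first. All 16 granulosa markers were above a mean of 1 CPM, and together they took 13449 to 20708 CPM per library. Summed markers of oocytes were at 110 to 157 CPM, of surface epithelium at 35.3 to 44.2, of endothelium at 23.8 to 36.6, of erythroid cells at 3.23 to 5.60 and of macrophages at 1.44 to 3.37 CPM. A mean of at least 1 CPM was reached by 14 of 15 oocyte markers, but by 3 of 11 of surface epithelium and 3 of 9 of endothelium. It was reached by 2 of 6 erythroid and 1 of 9 macrophage markers, so these sums rest on few genes. Markers of theca and stroma, the cells outside the follicular basement membrane, were at 1730 and 1700 CPM in Control and 2420 and 1992 CPM in NT4. None of the 17 theca and stroma markers was at 0, and 17 of 17 were higher in NT4, by log2 fold changes from 0.03 to 0.65 with a median of 0.37. In 10 of the 17 both NT4 libraries lay above both Control libraries, and in 0 they lay below. Of all genes at a mean of at least 1 CPM, 12.7% lay above in this way and 11.2% below. In a bulk sample, fewer cells of a type and less RNA per cell cannot be told apart.

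The levels of the imprinted genes were compared per length, as counts per kilobase of annotated exon scaled to the same total in every library (TPM). Nap1l5, a paternally expressed retrogene of the nucleosome assembly protein family (chromosome 6, 58905233 to 58907076, GRCm38), stood far above the others. It was at 915.7 and 1104 TPM in Control 1 and Control 2 and at 747.1 and 1141 TPM in NT4 1 and NT4 2. These values placed it between rank 107 and rank 173 of 55144 genes in each library. Its mean was 13.8 times that of the next member, Nnat, and it held 57.0% to 70.8% of the summed TPM of all 31 genes. The order below it was less firm. In 5 of the 31 genes the lowest library lay above the highest library of the next gene, and these were Nap1l5, Sgce, H19, Mirg and Kcnq1ot1.

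**Figure D1:**
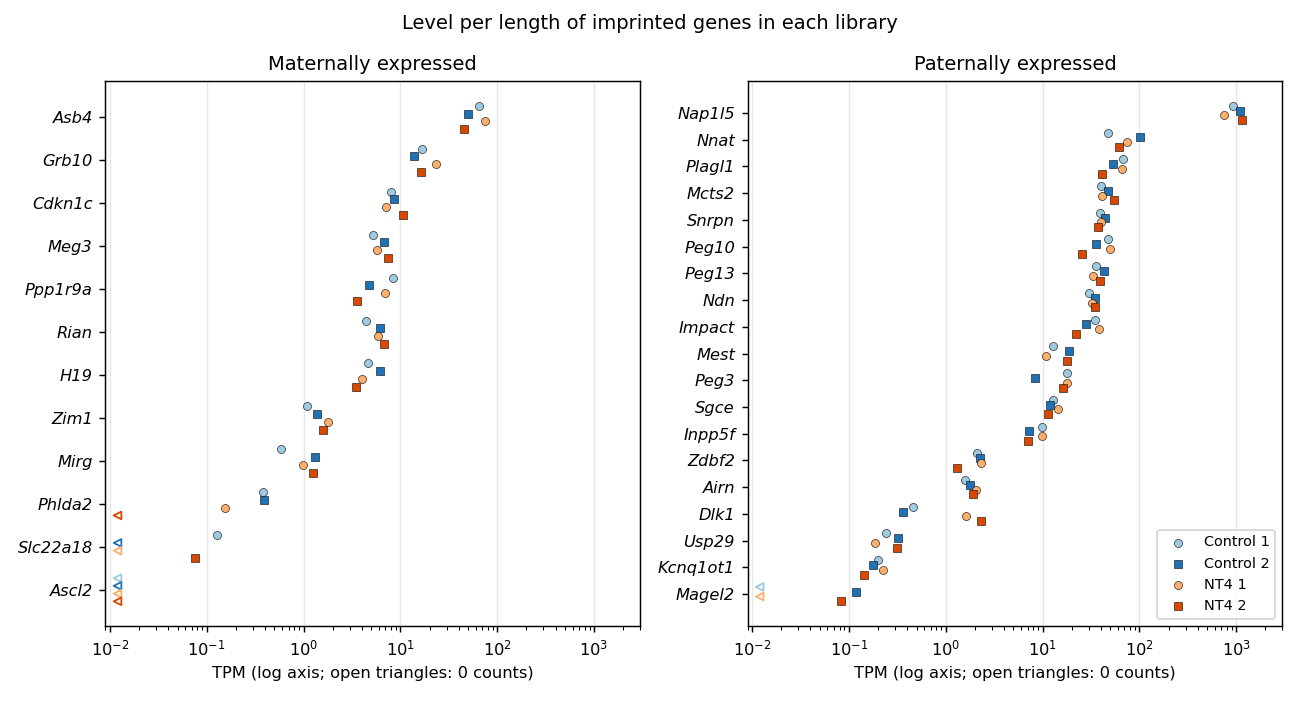
Level of each imprinted gene in TPM on a log axis, in 4 libraries (circles for replicate 1, squares for replicate 2, open triangles for 0 counts), with maternally expressed genes on the left and paternally expressed genes on the right. Nap1l5 lies between 747.1 and 1141 TPM, and no other member exceeds 101 TPM in any library.

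Paternally expressed genes took 90.1% to 94.1% of the summed TPM and maternally expressed genes 5.95% to 9.93%. Without Nap1l5, the other 18 paternally expressed genes still summed to 376 to 439 TPM per library, against 96.0 to 130.2 TPM for the 12 maternally expressed genes. Of the 10 genes with the highest mean TPM, 9 are paternally expressed. The exception was Asb4. The median of the mean TPM was 15.1 over the paternally expressed genes and 5.18 over the maternally expressed genes, beside 8.80 over all genes tested. By the longest transcript these medians were 24.6 and 5.16.

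The 300 bases around the RefSeq start of the 2 genes at the head of this order are shown here on GRCm38.p6, 5′ to 3′ on the gene's strand. Each window takes 250 bases before that start and 50 after it. For Nap1l5 the RefSeq start lies upstream of the gene model given above, and the window holds no base of that model. Capitals mark TGCCGC or its reverse complement GCGGCA, the hexamer that the imprint-maintaining zinc finger protein ZFP57 recognizes when methylated. The Nap1l5 window, chr6:58907077-58907376 on the minus strand, held 2 of them, and the Nnat window, chr2:157559828-157560127 on the plus strand, held 1.
Nap1l5: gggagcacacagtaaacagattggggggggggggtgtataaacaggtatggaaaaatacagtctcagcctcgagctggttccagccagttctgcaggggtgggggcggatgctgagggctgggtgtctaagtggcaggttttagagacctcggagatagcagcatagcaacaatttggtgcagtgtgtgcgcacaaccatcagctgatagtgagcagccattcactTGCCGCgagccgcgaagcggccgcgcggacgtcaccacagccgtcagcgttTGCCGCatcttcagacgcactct
Nnat: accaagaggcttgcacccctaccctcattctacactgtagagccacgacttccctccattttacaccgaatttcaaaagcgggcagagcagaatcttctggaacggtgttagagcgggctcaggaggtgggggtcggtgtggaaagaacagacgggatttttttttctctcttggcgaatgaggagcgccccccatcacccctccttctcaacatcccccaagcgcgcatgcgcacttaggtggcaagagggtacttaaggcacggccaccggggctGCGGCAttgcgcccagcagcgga

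A RefSeq window was found for 25 of the 31 genes, 35 windows in all because some genes have several starts. TGCCGC on either strand was in 11 of the 35 windows, of 10 genes, and in 11.6% of all 32851 windows of the same length. By class, 8 of 21 windows of paternally expressed genes and 3 of 14 windows of maternally expressed genes held it. Among the 8, the Mest windows chr6:30737800-30738099 and chr6:30737803-30738102 cover nearly the same bases, so that stretch is counted more than once. The median number of CG dinucleotides was 11 in the members' windows and 7 in all windows. A match is a description of the letters and not a bound site.

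Values by library are given next for the members with a mean of at least 10 CPM, with Control 1 before Control 2 and NT4 1 before NT4 2. CPM is not corrected for length and serves to compare libraries for the same gene. Among paternally expressed regulators, Plagl1, a zinc finger transcription factor that regulates other imprinted genes, was at 195.3 and 156.8 CPM in Control and 194.2 and 129.2 in NT4. Its NT4 values fell on both sides of Control 2 (log2 fold change −0.12, SE 0.23). Peg3, another zinc finger protein, was at 87.9 and 41.6 CPM in Control and 88.6 and 87.6 in NT4. Here Control 2 stood apart from the other 3 libraries, which lay close together. Impact, an inhibitor of the kinase GCN2, was at 66.6 and 53.4 CPM in Control and 73.0 and 46.5 in NT4, which overlapped fully. Ndn, which encodes the growth suppressor necdin, was at 41.5 and 47.8 CPM in Control and 44.5 and 52.3 in NT4. Its groups overlapped, and its SE of 0.16 was among the smaller ones.

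Among paternally expressed genes with other roles, Nap1l5 itself was at 627.3 and 761.2 CPM in Control and 515.7 and 852.8 in NT4. Peg10, derived from a retrotransposon and needed in the placenta, was at 117.7 and 88.7 CPM in Control and 123.9 and 68.6 in NT4. For both genes the NT4 libraries lay on either side of the Control libraries. Sgce, epsilon-sarcoglycan, starts 98 bases from Peg10 on the opposite strand and was at 50.7 and 47.8 CPM in Control and 56.8 and 48.4 in NT4. Per length of all exons, the ratio of Peg10 to Sgce was 2.26 to 3.69 in the 4 libraries, but per length of the longest transcript it was 1.23 to 1.54 in 3 libraries and 0.940 in NT4 2, where the order turned. Nnat, the membrane proteolipid neuronatin, was at 31.9 and 69.1 CPM in Control and 50.8 and 46.0 in NT4, so that both NT4 libraries fell between the Control libraries. Peg13, a noncoding RNA within an intron of Trappc9, was at 62.3 and 76.3 CPM in Control and 59.1 and 75.3 in NT4. Snrpn, a spliceosomal protein gene, was at 31.3 and 35.8 CPM in Control and 32.3 and 33.0 in NT4, with the smallest ratio of highest to lowest library, 1.14. Snrpn shares exons on the same strand with Snurf and Gm38393, so its count is uncertain. Mest, a member of the hydrolase fold family, was at 18.97 and 27.3 CPM in Control and 16.0 and 28.8 in NT4. Of the exon bases of Mest, 23.1% lie opposite exons of Copg2, and whether counting used strand is not stated. Inpp5f, a phosphoinositide phosphatase of which a shorter transcript is the imprinted form, was at 30.3 and 22.8 CPM in Control and 30.5 and 24.1 in NT4. Mcts2, a retrogene within H13, was at 13.5 and 16.1 CPM in Control and 14.0 and 20.2 in NT4. In these last genes too the groups overlapped.

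Of the maternally expressed genes, Asb4, a component of a ubiquitin ligase, was the highest, at 95.0 and 72.8 CPM in Control and 109.4 and 71.6 in NT4. Grb10, an adaptor that restrains insulin and insulin-like growth factor receptors, was at 56.5 and 47.4 CPM in Control and 78.99 and 59.7 in NT4. Ppp1r9a, the actin-binding protein neurabin, was at 45.7 and 25.8 CPM in Control and 37.7 and 20.8 in NT4. The groups of Asb4 and Ppp1r9a overlapped, and those of Grb10 did not. Cdkn1c, the cell cycle inhibitor p57, was lower, with 5.45 to 8.80 CPM over the 4 libraries. H19, a noncoding RNA abundant in the fetus, was at 3.44 to 5.66 CPM. Of the paternally expressed genes of low level, Zdbf2, a zinc finger gene, was at 6.73 to 10.9 CPM with overlapping groups. Kcnq1ot1, the noncoding RNA that silences Cdkn1c and its neighbours on the paternal allele, was at 5.46 to 7.76 CPM. Because its single exon is 93092 bases long, Kcnq1ot1 came to 0.145 to 0.223 TPM.

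A group of 4 members had a mean below 1 CPM. Ascl2, a transcription factor of the trophoblast, was at 0 counts in each of the 4 libraries, a result that leaves room for 0.156 to 0.239 CPM depending on the library. Slc22a18, a transporter gene, had 4 counts in Control 1 and in NT4 2 and 0 in the other two. Phlda2, which limits placental growth, had 8 and 12 counts in Control and 4 and 0 in NT4, at or under the floor throughout. Magel2, a ubiquitin ligase regulator next to Ndn, had 15 counts in Control 2, 12 in NT4 2 and 0 in Control 1 and NT4 1. No fold change is given for these 4 genes.

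The comparison of the groups asked how NT-4 in the medium related to the expression of these genes. In edgeR's quasi-likelihood test on the whole table, 29 of the 31 genes were tested, and 0 passed an adjusted p of 0.05, as did 0% of all 19259 genes tested. At an unadjusted p under 0.05 there was 1 member, beside 1.99% of all genes tested. The study itself selected genes that differed by more than 2 times in either direction at a P under 0.05. It also reports calculating a Benjamini-Hochberg FDR. With P read here as the unadjusted p, 1 of the 29 members met this criterion, beside 1.08% of all genes. That gene was Dlk1, higher in NT4, as were 0.478% of all genes by this criterion, while 0 members and 0.602% of all genes were lower. The DESeq2 Wald test called 1 member at an adjusted p of 0.05, again Dlk1, beside 0.254% of genes with an adjusted p. With limma voom, 0 members and 0 of all 19259 genes were called.

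Over the 27 members with a mean of at least 1 CPM, the median log2 fold change was 0.04. It was 0.0075 over all 14343 genes at that level and 0.0045 over all genes tested. In the fits on 3 libraries the median over members ran from 0.090 to 0.19. With all 4 libraries the median was 0.23 over 9 maternally expressed and −0.013 over 18 paternally expressed members. This order did not hold in every fit on 3 libraries, since without NT4 2 the medians were 0.079 and 0.12, and the paternal median was above 0 whichever library was left out. The difference between the classes was not tested. Apart from Dlk1, the 26 values ran from −0.48 to 0.52, and 25 of them were within 0.5 of 0. The difference was smaller than its SE in 20 of the 27 genes, with SE from 0.14 to 0.46, and the share over all genes is not given here. Both NT4 libraries lay above both Control libraries in 4 members, beside 12.7% of all genes at that level, and below them in 1 member, beside 11.2%.

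**Figure D2:**
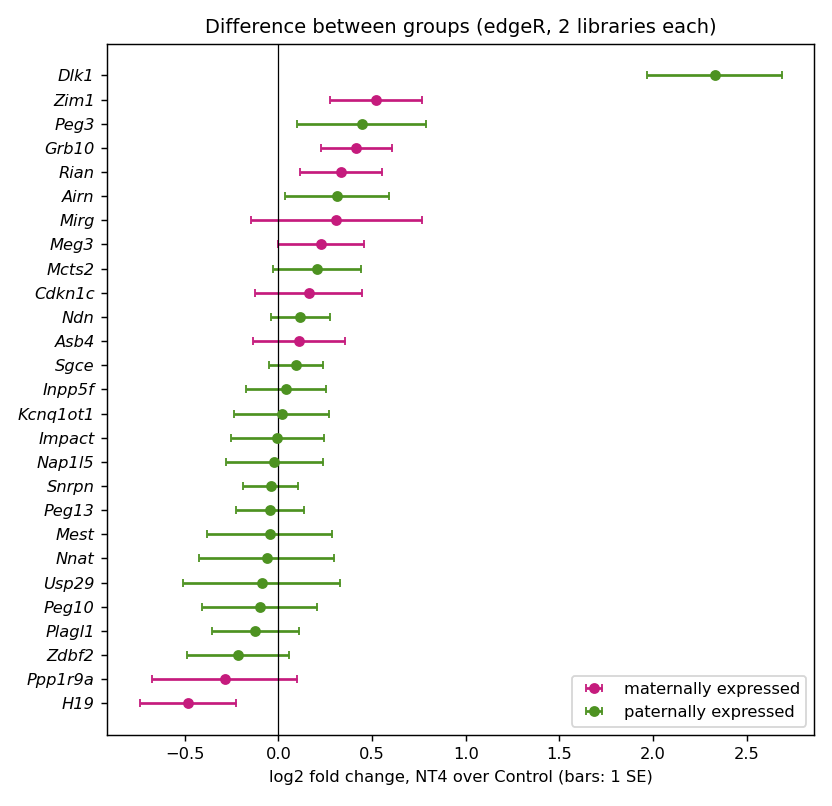
Log2 fold change of NT4 over Control with 1 SE (edgeR, 2 libraries per group) for the 27 imprinted genes with a mean of at least 1 CPM, sorted by value and coloured by class. Dlk1 lies at 2.33, and the other 26 genes lie between −0.48 and 0.52.

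Dlk1 (chromosome 12, 109452823 to 109463336) is a paternally expressed transmembrane protein of the Notch ligand type that keeps progenitor cells from differentiating. It was at 0.976 and 0.773 CPM in Control, from 49 and 57 counts, and at 3.47 and 5.31 CPM in NT4, from 216 and 409 counts. With 1 read pair taken as about 4 counts, the Control values rest on few read pairs. Both NT4 libraries lay above both Control libraries, and the means were 0.875 ± 0.14 and 4.39 ± 1.3 CPM (SD, n = 2). The log2 fold change was 2.33 (SE 0.36), a fold of 5.02, and edgeR's test gave an unadjusted p of 0.00104 and an adjusted p of 0.749. By unadjusted p, Dlk1 was number 26 of the 19259 genes tested. The DESeq2 adjusted p was 0.000665, and it was 0.9999 in limma voom, the lowest and the highest among the alternatives. The unadjusted p of limma voom was 0.0020, and its smallest adjusted p over all genes was 0.224. Both methods were run on the undivided counts. With counts divided by 4, edgeR's test gave a log2 fold change of 2.36 and an adjusted p of 0.685. Whichever library was left out, the log2 fold change stayed between 1.99 and 2.60. Even in NT4 its level was low, at 1.64 and 2.32 TPM. The theca and stroma markers were higher in NT4 by a median of 0.37 on the log2 scale. Of these, Acta2 (log2 fold change 0.44), Dcn (0.39), Tcf21 (0.57), Col3a1 (0.37) and Lum (0.65) had an unadjusted p under 0.05, and edgeR put the adjusted p of each at 0.9999. The largest of the 17, 0.65, was smaller than the value of Dlk1. Among the other markers, Tek of the endothelium list, with an unadjusted p of 0.0366 and an edgeR adjusted p of 0.9999, was at 0.159 and 0.190 CPM in Control and 0.946 and 0.441 in NT4. The 9 endothelium markers did not share a direction, with 7 log2 fold changes above 0, among them Tek (1.97) and Flt1 (3.14, SE 1.38, from 0 and 4 counts in Control and 19 and 19 in NT4), and those of Kdr (−1.78) and Pecam1 (−0.53) below. The fitted value of Flt1 was thus above that of Dlk1, on few counts. The part of such cells in the level of Dlk1 was not tested.

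Dlk1 heads the Dlk1-Dio3 cluster, in which the maternal allele expresses the noncoding RNAs Meg3, Rian and Mirg. The start windows of Dlk1, chr12:109452573-109452872, and of Meg3, chr12:109540746-109541045, both on the plus strand, are shown because the 2 genes mark the opposite parental alleles of the cluster. Capitals mark TGCCGC or GCGGCA, found in this window of Meg3. Another Meg3 window, chr12:109545148-109545447, held 0 of them and is not shown.
Dlk1: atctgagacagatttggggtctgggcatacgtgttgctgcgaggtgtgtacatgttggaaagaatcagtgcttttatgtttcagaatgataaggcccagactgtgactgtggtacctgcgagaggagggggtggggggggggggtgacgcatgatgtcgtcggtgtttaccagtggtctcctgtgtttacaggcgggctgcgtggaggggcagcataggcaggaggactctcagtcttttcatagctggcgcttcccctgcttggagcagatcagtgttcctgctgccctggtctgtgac
Meg3: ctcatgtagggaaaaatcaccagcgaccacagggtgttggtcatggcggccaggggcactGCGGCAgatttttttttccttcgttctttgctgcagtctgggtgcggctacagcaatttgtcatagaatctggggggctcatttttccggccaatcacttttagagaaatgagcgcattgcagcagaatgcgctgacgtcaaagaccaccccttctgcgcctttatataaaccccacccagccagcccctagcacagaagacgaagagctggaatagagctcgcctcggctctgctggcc

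Meg3 was at 34.8 and 45.5 CPM in Control and 39.0 and 55.0 in NT4 (log2 fold change 0.23, SE 0.23). The difference of Meg3 was −0.045 without NT4 2 and 0.45 without NT4 1. Rian, host of small nucleolar RNAs, was at 29.99 and 41.8 CPM in Control and 40.2 and 50.3 in NT4 (0.33, SE 0.22), and its difference was 0.11 without Control 1, 0.16 without NT4 2 and 0.60 without Control 2. Mirg, host of microRNAs, was at 1.59 and 3.57 CPM in Control and 2.68 and 3.74 in NT4 (0.31, SE 0.46). The difference of Mirg was −0.16 without Control 1 and 1.01 without Control 2. All 3 overlapped between groups, and in each the lowest library was Control 1 and the highest NT4 2. Meg3 was at 0.977 to 1.17 times the TPM of Rian in the 4 libraries, and at 0.539 to 0.645 times by the longest transcript, which put Rian above Meg3 throughout. By the length of all exons, the ratio of Rian to Mirg ran from 4.68 to 7.52. The ratio of Meg3 to Dlk1 was 11.1 and 18.4 in Control and 3.52 and 3.24 in NT4. In all 4 libraries the maternally expressed Meg3 and Rian were above Dlk1 per length. Mirg was above Dlk1 in Control, at 0.588 and 1.308 TPM against 0.465 and 0.365. In NT4 the order of Mirg and Dlk1 turned, with 0.981 and 1.265 TPM against 1.636 and 2.315.

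**Figure D3:**
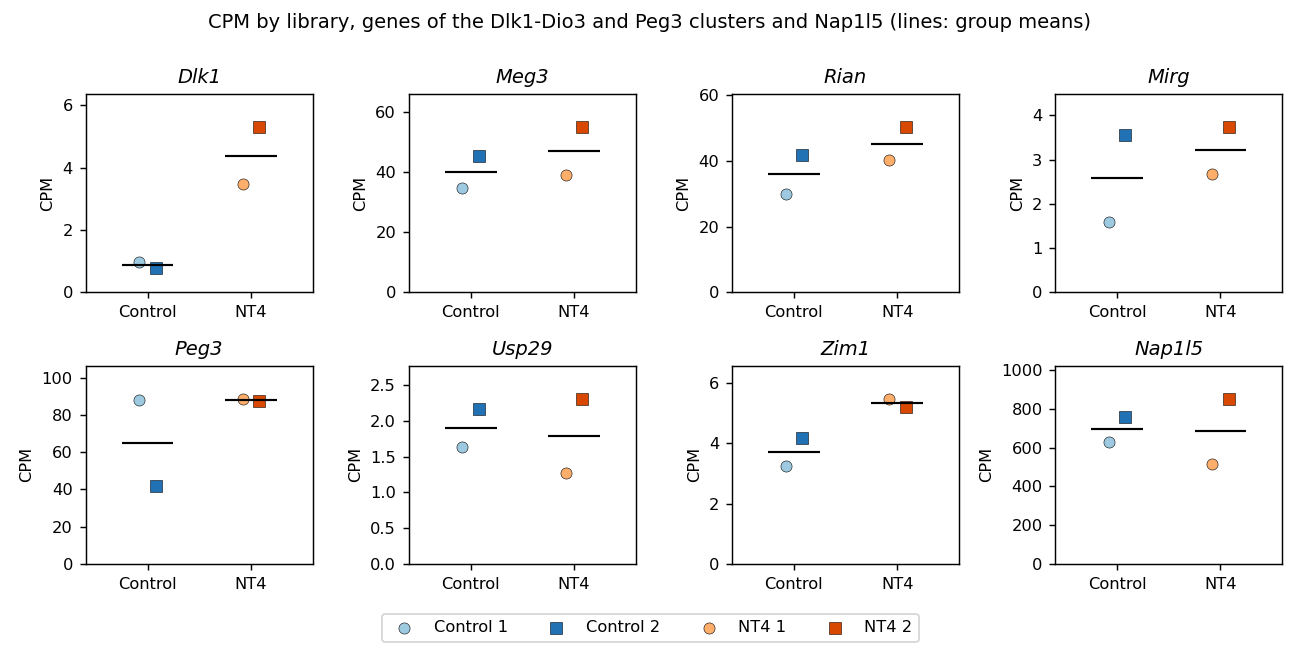
CPM in each library (circles for replicate 1, squares for replicate 2, lines for group means) of genes of the Dlk1-Dio3 cluster, the Peg3 cluster and Nap1l5, each panel starting at 0. Dlk1 is at 0.773 to 0.976 CPM in Control and 3.47 to 5.31 in NT4, Control 2 of Peg3 is at 41.6 CPM against 87.6 to 88.6 in the other libraries, and the groups of Meg3, Rian, Mirg, Usp29 and Nap1l5 overlap.

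By coordinates, 22 microRNA genes of RefSeq lie within 6 members on the same strand, and 14 of these lie in Mirg, 3 in Rian, 2 in Meg3 and 1 each in H19, Mest and Usp29. They give 41 mature microRNAs with 40 distinct seeds. The counts measured the host RNAs and not the mature microRNAs. The pair from H19 is shown because a microRNA within an exon is a known product of this RNA, and the pair from Mirg because these alone share a seed. Capitals mark the seed, bases 2 to 8.
mmu-miR-675-5p (H19): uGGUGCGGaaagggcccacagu
mmu-miR-675-3p (H19): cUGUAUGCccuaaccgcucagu
mmu-miR-453 (Mirg): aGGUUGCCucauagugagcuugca
mmu-miR-496a-5p (Mirg): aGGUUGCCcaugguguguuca

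The Peg3 cluster on chromosome 7 holds Peg3 and Usp29 on the paternal and Zim1 on the maternal allele. In the gene models Peg3 and Usp29 start 146 bases apart on opposite strands. Their RefSeq windows, which are placed by other starts, share 263 bases. The Peg3 window, chr7:6730370-6730669 on the minus strand, is shown with the shared bases in capitals.
Peg3: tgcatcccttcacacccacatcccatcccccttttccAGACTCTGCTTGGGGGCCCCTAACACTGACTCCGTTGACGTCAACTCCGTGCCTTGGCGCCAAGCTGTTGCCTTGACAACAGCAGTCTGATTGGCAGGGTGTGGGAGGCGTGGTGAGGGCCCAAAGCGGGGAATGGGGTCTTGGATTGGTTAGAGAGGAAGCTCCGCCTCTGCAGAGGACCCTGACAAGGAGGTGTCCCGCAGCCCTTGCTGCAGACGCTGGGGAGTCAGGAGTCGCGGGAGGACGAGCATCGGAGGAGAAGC

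With this shared stretch, Peg3 was 26.0 to 94.9 times as high as Usp29 per length, and 16.6 to 60.7 times by the longest transcript. Usp29, a ubiquitin peptidase gene, was at 1.63 and 2.17 CPM in Control and 1.27 and 2.31 in NT4 (log2 fold change −0.09, SE 0.42). Peg3 had a log2 fold change of 0.44 (SE 0.34), which was 1.08 without Control 1 and 0.0085 without Control 2. Control 2, which is low for Peg3, was not low for Usp29. Zim1, a zinc finger gene, was at 3.25 and 4.18 CPM in Control and 5.47 and 5.20 in NT4, without overlap (0.52, SE 0.25, edgeR adjusted p 0.9999).

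Of the 27 members with a mean of at least 1 CPM, those whose groups did not overlap were Dlk1, Grb10, Zim1 and Airn, higher in NT4, and H19, lower in NT4, and all 5 were singled out after their values were seen. Grb10 had a log2 fold change of 0.42 (SE 0.19, unadjusted p 0.0735), which was 0.30 without Control 2 and 0.19 without NT4 1. Airn, the noncoding RNA that silences Igf2r on the paternal allele, was at 2.09 and 2.40 CPM in Control and 2.79 and 2.79 in NT4 (0.31, SE 0.28). Its neighbour Igf2r had a log2 fold change of −0.17, with an edgeR adjusted p of 0.9999. H19 was at 4.26 and 5.66 CPM in Control and 3.66 and 3.44 in NT4 (−0.48, SE 0.26), and the difference was −0.26 without Control 2. Igf2, the paternally expressed neighbour of H19, had 12 and 4 counts in Control and 19 and 12 in NT4, near the floor. Apart from Dlk1, edgeR put the adjusted p of these members at 0.9999.

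Many members differed between the libraries of a group in the same way in both groups. In 11 of the 27 members both libraries numbered 2 lay above both numbered 1, beside 28.4% of all genes at that level, and in 9 members both numbered 1 lay above both numbered 2, beside 24.4%. Those higher in the libraries numbered 2 included Nap1l5, Mest, Ndn, Peg13, Mcts2, Meg3 and Rian, and those higher in the libraries numbered 1 included Plagl1, Peg10, Impact, Asb4 and Ppp1r9a. The median exon length was 3945 bases in the former and 8323 bases in the latter. Across the 27 members, which share the 4 libraries, exon length and the difference by number had a Spearman coefficient of −0.29, and across 14337 genes it was −0.16. The libraries numbered 2 were also the deeper ones of each group, and the part of depth or length was not tested. The highest library was at least 2 times the lowest in 5 of the 27 members (Dlk1, Mirg, Peg3, Nnat and Ppp1r9a), beside 11.5% of all genes. Within number 1, the log2 difference of NT4 and Control was 1.83 for Dlk1, and within number 2 it was 2.78. Over the 27 members this difference had the same sign in both numbers in 16. The share over all genes is not given here, so the count is not read as a trait of these members.

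**Figure D4:**
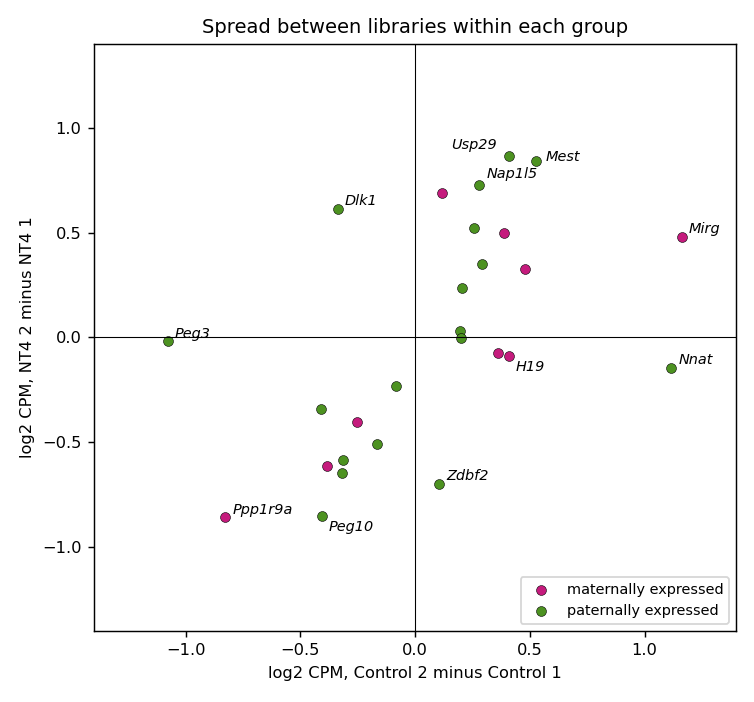
Difference in log2 CPM between replicate 2 and replicate 1 within Control (horizontal) and within NT4 (vertical) for the 27 imprinted genes with a mean of at least 1 CPM. Most genes lie in the upper right or lower left, where replicate 2 is higher, or lower, in both groups, and Peg3, Nnat and Mirg differ by more than 1 within Control.

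Imprinted genes outside the list and the genes that keep imprints were examined in the same fit. Of 40 other imprinted genes found in the table, 30 were tested, 17 with a log2 fold change above 0 and 13 below. The median was 0.03 over these 30 and −0.02 over the 23 with a mean of at least 1 CPM, the base used for the members. In edgeR's test 0 passed an adjusted p of 0.05 and 0 had an unadjusted p under 0.05, and the DESeq2 Wald test and limma voom also called 0. The highest were Gnas, the stimulatory G protein subunit that couples the gonadotropin receptors to cyclic AMP, at 775.7 to 850.4 CPM, Cd81, a tetraspanin, at 282.4 to 346.5, and H13, a signal peptide peptidase, at 174.4 to 194.2. Both NT4 libraries lay above both Control libraries in 3 of the 23 with a mean of at least 1 CPM and below in 6, beside 12.7% and 11.2% of all genes at that level.

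Of 30 imprint regulators, 28 were tested, 8 with a log2 fold change above 0 and 20 below, with a median of −0.09 over all 28 and over the 27 with a mean of at least 1 CPM. In edgeR's test 0 passed an adjusted p of 0.05 and 0 had an unadjusted p under 0.05, and DESeq2 and limma voom called 0. Trim28, the corepressor recruited by ZFP57, was at 593.2 to 646.7 CPM, Dnmt1, the maintenance methyltransferase, at 206.2 to 233.4, and Cbx5, a heterochromatin protein, at 188.2 to 221.1. Each differed between groups by less than 0.2 on the log2 scale. Both NT4 libraries lay below both Control libraries in 6 of the 27 regulators with a mean of at least 1 CPM and above in 1, beside the same 11.2% and 12.7% of all genes.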

How the data were processed

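Bulk RNA of GCs was measured in 4 libraries, grouped by their GEO labels. By their methods, the authors filtered reads with Cutadapt, mapped them with HISAT2 to an Ensembl release of the mouse genome and estimated expression with StringTie and ballgown. The submitters' processing notes name the build mm10, which is GRCm38. What they deposited for each gene is an expected count, given as a whole number and not normalized; the step to whole numbers is not stated. Of counts from 1 to 12, 45.4% to 46.2% sat at multiples of 4, so 1 read pair was taken as about 4 counts, and the floor of 3 read pairs as 12 counts. Symbols matched 55144 of 55385 identifiers, and gene models came from GENCODE M21.

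All genes were fitted in R 4.3.3 with edgeR 4.0.16 (quasi-likelihood test, TMM, default filter, group alone, two-sided, Benjamini-Hochberg over 19259 genes). SE was derived from the log2 fold change and the F statistic. CPM used TMM factors. TPM used the length of all exons of a gene together. Alternatives were other scalings and filters, the DESeq2 1.42.0 Wald test, limma 3.58.1 voom, counts divided by 4, fits without each library in turn, a block for the replicate number, overlapping genes summed, another fold and another length. The procedure was tested on simulated data. With 2 libraries against 2, a permutation cannot go below a p of 0.333, and p-values measure the spread between these libraries. Members and lists were chosen with earlier results of these data known. The rule named values by library for members at a mean of at least 10 CPM or an unadjusted p under 0.05, and from other lists the 3 genes with the highest mean CPM and those with an unadjusted p under 0.05. Of the cell type marker lists, only the latter were named. H19, Zim1, Airn, Usp29, Mirg, Igf2, Igf2r, Flt1, Kdr and Pecam1 were added after their values were seen.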

Additional observations from a re-analysis of the deposited data

How the results depend on the processing

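Dlk1 stayed higher in NT4 in every alternative run. The number of members past an adjusted p of 0.05, which was 0, was 1 in the DESeq2 Wald test (Dlk1) and 0 in the others. The number meeting the study's criterion, 1, was between 1 and 2 in the fits on 3 libraries, and was 2 without Control 1, where Peg3 was added. The median log2 fold change of members, 0.04, ran from 0.090 to 0.19 in the same fits, highest without NT4 1. Over the maternally expressed members this range was 0.079 to 0.45, and over the paternally expressed members 0.040 to 0.12. The cause was not tested.

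Of 243 values for single members with all 4 libraries, 239 kept their sign. Kcnq1ot1, at 0.017, was at −0.00090 with library totals, −0.0093 in limma voom and −0.0030 with the replicate block, and Nnat was at 0.039 with the replicate block. With a library left out, 32 of 108 values reversed, in 20 members. The ranges were −0.045 to 0.45 for Meg3, −0.16 to 1.01 for Mirg, −0.59 to 0.26 for Peg10, −0.23 to 0.12 for Peg13, −0.53 to 0.31 for Mest, −0.23 to 0.46 for Cdkn1c, −0.45 to 0.14 for Plagl1, −0.14 to 0.064 for Snrpn, −0.0063 to 0.23 for Ndn, −0.52 to 0.61 for Nnat, −0.59 to 0.27 for Usp29, −0.37 to 0.28 for Impact, −0.26 to 0.25 for Kcnq1ot1, −0.033 to 0.21 for Sgce, −0.79 to 0.18 for Ppp1r9a, −0.61 to 0.090 for Zdbf2, −0.079 to 0.44 for Mcts2, −0.43 to 0.29 for Nap1l5, −0.15 to 0.25 for Inpp5f and −0.24 to 0.38 for Asb4. Of the members that kept their sign, Grb10 ran from 0.19 to 0.60, H19 from −0.68 to −0.26, Rian from 0.11 to 0.60, Zim1 from 0.35 to 0.72, Airn from 0.21 to 0.42 and Peg3 from 0.0085 to 1.08. These fits assume that the lone library of a group varies as those of the other group do.

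Both groups carry the same replicate numbers, but the labels state no pairing. By the paper, the culture groups were run in parallel, and the granulosa samples of a group came from independent experiments. Whether libraries of the same number came from the same experiment is not stated. Libraries of the same number deviated from the means of their groups with a correlation of 0.14 (Pearson) and 0.26 (Spearman) over 19259 genes. With the replicate block, 0 members passed an adjusted p of 0.05, Dlk1 was at 2.31, and 580 genes had an unadjusted p under 0.05 against 383 without it. Depth limits Phlda2, Magel2, Slc22a18 and Ascl2.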
